A study of Mus musculus with 9 samples.

Results

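Creg2, Gm765, Siah3, Slc26a7, Isoc1 and Lgalsl are 6 genes with no established role in sensory neurons whose messenger RNA differed between ganglia that had lost Prdm12 and control ganglia. They were picked by name for that difference, out of 55536 genes in the count tables and 17258 genes with enough counts to test, and all 6 passed the filter on low counts. Messenger RNA of lumbar dorsal root ganglia, where the cell bodies of sensory neurons lie beside the lower spine, was sequenced from adult C57Bl6 mice. The icKO group held 5 libraries from mice with an inducible and conditional deletion of Prdm12, and the control group held 4 libraries from mice labelled wild type, and the ganglia were collected 1 month after injection of tamoxifen, which sets off the deletion. The sources used here name neither the Cre line nor the deleted exon, and they do not say whether each library came from its own animal, so the spread between libraries may be partly technical. Because the icKO minus control difference chose the 6 genes, it is given for them as a description, with its error and without a test.

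Prdm12 encodes a zinc finger regulator of transcription, known from mouse and human studies for its part in making and keeping nociceptors, the neurons that report painful stimuli. Of the 6 genes, Creg2 encodes a secreted glycoprotein related to CREG1, the cellular repressor of E1A-stimulated genes, and Siah3 encodes a relative of the SIAH ubiquitin ligases, which mark proteins for destruction. Slc26a7 encodes an anion transporter known for chloride and bicarbonate transport in kidney and stomach, Lgalsl encodes a protein related to galectins, which are sugar-binding proteins, and Isoc1 encodes a protein with an isochorismatase domain whose function is little known. Gm765 is annotated as protein coding but carries only a predicted-gene symbol. A ganglion holds neurons, glia, vessels, immune cells and connective tissue, so in these bulk samples a lower level of a transcript in each cell and a smaller share of the cells that make it cannot be told apart.

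Library totals ran from 23878297 to 29481589 counts in icKO and from 19607740 to 27970469 in control. Prdm12 itself was at 23.4, 24.2, 24.1, 22.3 and 26.2 CPM in icKO libraries 1 to 5, against 128, 129, 116 and 163 CPM in control libraries 1 to 4 (CPM, counts scaled to a common library size after TMM normalisation). The icKO level was 18% of the control mean, and the counts include any exon left after the deletion. All 8 pan-neuronal markers had counts in every library, with summed levels of 8726 to 10357 CPM in icKO and 9045 to 10397 CPM in control. Y-linked counts were high in icKO 1 and 2 and control 1 and 3 and low in the other 5 libraries, so both kinds of library occur in both groups. Among the low libraries, icKO 4 stood at 3.64 CPM scaled by library size alone, and the rest at 0.105 to 0.663 CPM.

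RefSeq promoters were on hand for 4 of the 6 genes and are shown because they hold the sequence around the start sites of 3 genes that were lower in icKO and 1 that was higher. Each runs 5′ to 3′ on the gene's own strand, from 250 bases before to 50 bases after the RefSeq start site on GRCm38.p6. Capitals mark matches, on either strand, to the letters searched for as a TATA box, CAAT box or GC box, which are spelled out below the sequences.
Creg2: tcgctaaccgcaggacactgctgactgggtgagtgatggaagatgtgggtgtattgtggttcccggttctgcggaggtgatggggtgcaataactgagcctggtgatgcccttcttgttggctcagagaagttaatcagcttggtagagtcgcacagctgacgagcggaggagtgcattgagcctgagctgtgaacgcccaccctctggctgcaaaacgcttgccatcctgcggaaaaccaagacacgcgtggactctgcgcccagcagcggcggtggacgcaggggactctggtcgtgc
Gm765: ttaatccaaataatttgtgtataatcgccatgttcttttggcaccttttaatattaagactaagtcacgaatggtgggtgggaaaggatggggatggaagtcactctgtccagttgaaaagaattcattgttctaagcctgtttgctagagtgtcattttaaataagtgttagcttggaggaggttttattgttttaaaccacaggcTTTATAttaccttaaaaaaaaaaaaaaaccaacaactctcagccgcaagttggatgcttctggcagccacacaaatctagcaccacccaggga
Siah3: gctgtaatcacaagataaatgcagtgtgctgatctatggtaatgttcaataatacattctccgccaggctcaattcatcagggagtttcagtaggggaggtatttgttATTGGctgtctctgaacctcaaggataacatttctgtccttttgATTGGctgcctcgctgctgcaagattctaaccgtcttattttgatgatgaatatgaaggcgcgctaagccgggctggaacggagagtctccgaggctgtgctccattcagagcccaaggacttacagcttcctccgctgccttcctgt
Lgalsl: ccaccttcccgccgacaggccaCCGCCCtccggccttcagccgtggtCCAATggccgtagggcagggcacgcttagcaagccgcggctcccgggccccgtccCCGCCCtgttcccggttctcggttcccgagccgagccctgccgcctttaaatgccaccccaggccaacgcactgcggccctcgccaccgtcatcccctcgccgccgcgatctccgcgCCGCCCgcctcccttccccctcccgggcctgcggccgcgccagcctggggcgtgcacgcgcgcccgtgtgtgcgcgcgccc
The windows are chr1:39651133-39651432 on the minus strand for Creg2, chr6:98342705-98343004 on the minus strand for Gm765, chr14:75455732-75456031 on the plus strand for Siah3 and chr11:20831059-20831358 on the minus strand for Lgalsl. The RefSeq start matches the 5′ end of the GENCODE gene for Gm765 and Siah3 and lies 52 bases upstream of it for Lgalsl. For Creg2 it lies 292 bases downstream, so the whole Creg2 window is inside the GENCODE gene.

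None of the motifs searched was in all 3 promoters of the genes lower in icKO. Bases G and C made up 58.7% of the Creg2 window, 38.3% of the Gm765 window and 47.3% of the Siah3 window, against 76.3% for Lgalsl and a median of 52.7% over all 32851 windows of the same length. The Lgalsl window held 41 CpG pairs, the Creg2 window 17, the Siah3 window 9 and the Gm765 window 3. Their observed over expected ratios were 1.01, 0.678, 0.536 and 0.274, against a median of 0.384 over all windows. TATAAA, searched as the TATA box, was found 1 time, in Gm765, and in 13.6% of all windows. CCAAT, searched as the CAAT box, occurred 2 times in Siah3 and 1 time in Lgalsl, and in 37.4% of all windows, and GGGCGG, searched as the GC box, occurred 3 times in Lgalsl and in 35.7% of all windows. CANNTG, the letters of an E-box, was found 1 time each in Creg2 and Gm765, at -96 and -140 from the start site, and in 72.3% of all windows. TAATTA and TGACGTCA, in 5.29% and 1.79% of all windows, were in none of the 4. A match or its lack says only which letters the window holds.

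All 6 genes passed the threshold of edgeR's quasi-likelihood test across all genes, an adjusted p under 0.05, which 147 of 17258 genes (0.852%) passed. Of the 6, 3 were higher in icKO, where 0.475% of all genes were called higher, and 3 were lower, where 0.377% of all genes were called lower. For each of the 6 the ranges of the groups were apart, which held for 4.5% of all tested genes. These counts restate how the genes were chosen.

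Creg2, the gene of the secreted CREG1 relative, differed most. Creg2 stood at 11.6, 16.7, 12.85, 9.75 and 12 CPM in icKO libraries 1 to 5, against 46.5, 30.05, 30.4 and 32 CPM in control libraries 1 to 4. All icKO libraries lay below all control libraries, icKO 2 was the highest of its group, and control 1 stood above the other 3 controls, which were close together. The means were 12.6 ± 2.55 CPM in icKO (SD, n = 5) and 34.7 ± 7.88 CPM in control (SD, n = 4), and the fitted log2 fold change (log2 FC) was -1.47 (SE 0.16). These levels rest on 237 to 430 raw counts in the icKO libraries and 621 to 1268 in the controls. Without control 1 the log2 FC was -1.29. Creg2 (ENSMUSG00000050967) is at 39618406 to 39651474 of chromosome 1, minus strand, on mm10 and has 1 annotated transcript with 4 exons.

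Gm765 (ENSMUSG00000090667) was the most abundant of the 6. It was at 185, 162, 161, 144 and 167 CPM in icKO libraries 1 to 5, against 326, 345, 262 and 304 CPM in control libraries 1 to 4. The lowest control, control 3, was 1.41 times the highest icKO library, icKO 1. The icKO mean of 164 ± 14.8 CPM (SD, n = 5) was 53.0% of the control mean of 309 ± 35.6 CPM (SD, n = 4), a log2 FC of -0.92 (SE 0.087). In CPM its icKO minus control difference was -145, against -109.8 for Prdm12. The gene covers 98235708 to 98342754 on the minus strand of chromosome 6, with 2 transcripts and 4 exons.

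Siah3, the SIAH relative, had 21.5, 21.4, 23.1, 18.5 and 24.6 CPM in icKO libraries 1 to 5, against 37.2, 30.6, 38.2 and 39.1 CPM in control libraries 1 to 4. The groups were close at their edges, with icKO 5 the highest of its group and control 2 the lowest of its own, a ratio of 1.24 between control 2 and icKO 5. The means were 21.8 ± 2.27 CPM in icKO (SD, n = 5) and 36.3 ± 3.86 CPM in control (SD, n = 4), with a log2 FC of -0.73 (SE 0.091). Siah3 (ENSMUSG00000091722) covers 75455982 to 75529708 of chromosome 14, plus strand, with 1 transcript of 2 exons.

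Slc26a7, the anion transporter gene, was the scarcest of the 6 in control. It was at 14.1, 10.5, 14.3, 15.2 and 11.8 CPM in icKO libraries 1 to 5, against 7.66, 7.47, 8.49 and 8.30 CPM in control libraries 1 to 4. The icKO libraries were spread widely, from icKO 2 to icKO 4, and the controls hardly at all, with coefficients of variation of 15% in icKO and 6.15% in control. The icKO mean of 13.2 ± 1.97 CPM (SD, n = 5) and the control mean of 7.98 ± 0.491 CPM (SD, n = 4) gave a log2 FC of 0.72 (SE 0.12). Slc26a7 (ENSMUSG00000040569) covers 14502430 to 14621805 on the minus strand of chromosome 4, with 4 transcripts.

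Isoc1 and Lgalsl were the most even of the 6 across icKO libraries. Isoc1 was at 105, 107, 106, 111 and 109.9 CPM in icKO libraries 1 to 5, against 68.6, 68.6, 74.9 and 79.7 CPM in control libraries 1 to 4. The icKO libraries differed by a coefficient of variation of 2.56%, the controls by 7.39%, and control 4 came nearest to icKO. The means were 108 ± 2.75 CPM in icKO (SD, n = 5) and 73.0 ± 5.39 CPM in control (SD, n = 4), with a log2 FC of 0.56 (SE 0.057). Lgalsl was at 51.2, 46.4, 49.8, 49.8 and 51.2 CPM in icKO libraries 1 to 5, against 37.2, 33.8, 34.1 and 35.4 CPM in control libraries 1 to 4. In Lgalsl icKO 2 was the lowest of its group and control 1 the highest of its own, and these 2 libraries differed by a ratio of 1.25. Its means were 49.7 ± 1.96 CPM in icKO (SD, n = 5) and 35.1 ± 1.54 CPM in control (SD, n = 4), a log2 FC of 0.50 (SE 0.053). Isoc1 (ENSMUSG00000024601) is at 58659466 to 58680368 of chromosome 18, plus strand, and Lgalsl (ENSMUSG00000042363) at 20823576 to 20831056 of chromosome 11, minus strand.

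**Figure D1:**
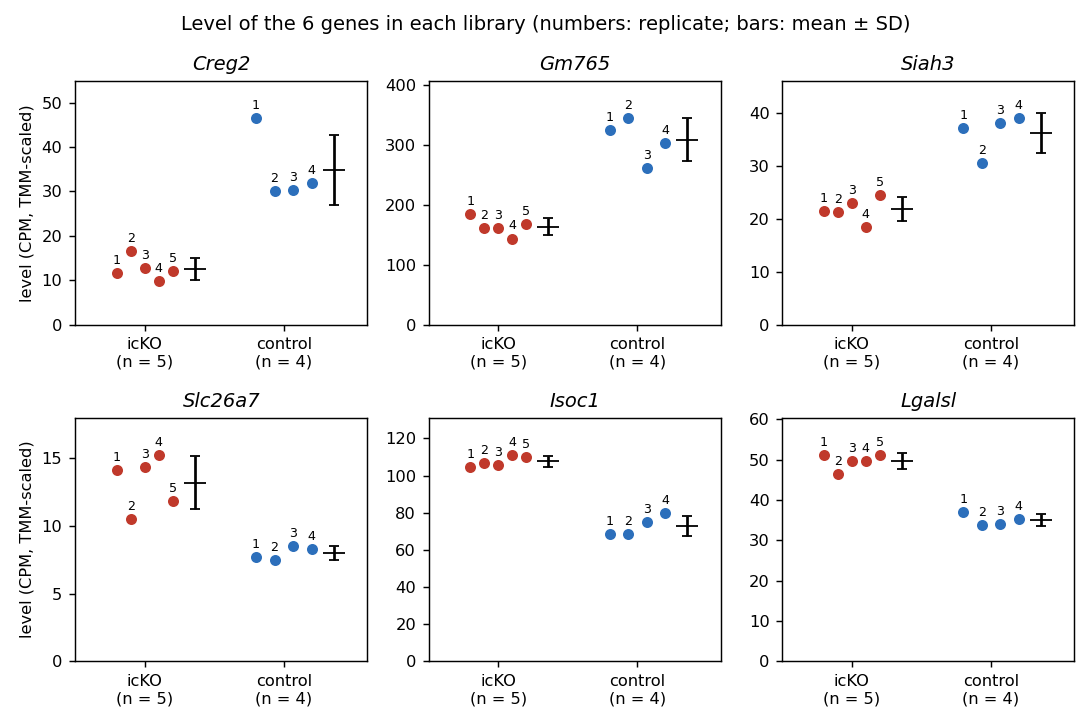
Level of each of the 6 genes in every library, in TMM-scaled CPM on linear axes that start at 0, with icKO (5 libraries) left of control (4 libraries), replicate numbers above the points and the mean ± SD beside them. In every panel the groups do not overlap, and control 1 is set apart in Creg2 at 46.5 CPM.

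The order of the 6 genes changed between the groups when levels were divided by exonic length. In icKO the mean level per kilobase of exon was 45.7 CPM for Gm765, 31.9 for Isoc1, 12.1 for Lgalsl, 4.88 for Siah3, 2.43 for Slc26a7 and 2.06 for Creg2. In control it was 86.2 CPM for Gm765, 21.6 for Isoc1, 8.53 for Lgalsl, 8.11 for Siah3, 5.70 for Creg2 and 1.47 for Slc26a7. Slc26a7 and Creg2 overlapped among the icKO libraries, at 1.93 to 2.80 and 1.6 to 2.73 CPM per kilobase. Among the controls, Lgalsl at 8.21 to 9.03 and Siah3 at 6.85 to 8.74 overlapped, and Siah3 and Creg2 did too, since Creg2 reached 7.63 CPM per kilobase in control 1. In control Gm765 lay at percentile 97.4 of all tested genes on this scale, above Prdm12 at 95.4, while Isoc1 was at percentile 86.8 and Slc26a7 at 32.8.

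Since the groups do not overlap in any of the 6 genes, their direction is fixed by how they were chosen, and leaving out a library can move only the size. The genes were chosen as consistent changers, so small spreads and narrow ranges of size may partly follow from the choice too. Leaving out each library in turn gave log2 FC values of -1.59 to -1.29 for Creg2, -0.98 to -0.86 for Gm765 and -0.80 to -0.68 for Siah3. The same ranges were 0.67 to 0.80 for Slc26a7, 0.53 to 0.61 for Isoc1 and 0.48 to 0.53 for Lgalsl. Among the libraries with high Y-linked counts (2 icKO, 2 control) the icKO minus control differences in log2 CPM were -1.43 for Creg2, -0.75 for Gm765, -0.81 for Siah3, 0.59 for Slc26a7, 0.56 for Isoc1 and 0.45 for Lgalsl. Among those with low Y-linked counts (3 icKO, 2 control) the values, in the same order, were -1.43, -1.04, -0.66, 0.79, 0.56 and 0.54. In a model with that split and its interaction with the group, edgeR's quasi-likelihood test called 0 of all tested genes for the interaction, with 282 at an unadjusted p under 0.05, and the smallest unadjusted p of the 6 was 0.121, for Gm765.

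**Figure D2:**
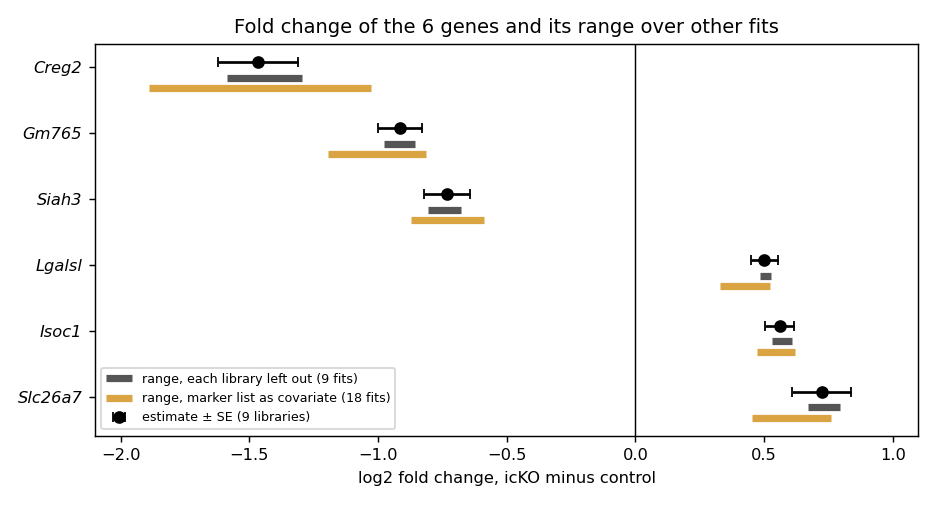
Log2 fold change (icKO minus control) of each gene with its SE from all 9 libraries as a point, the range over 9 fits that each leave out 1 library as a dark bar, and the range over 18 fits that each add 1 marker list as a covariate as a yellow bar. Leave-one-out values of Creg2 run from -1.59 to -1.29 and those of Lgalsl from 0.48 to 0.53, and the directions follow from how the genes were chosen.

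Deviations from the group means, which do not depend on the difference that chose the genes, gave no pair of the 6 that passed the test. Over 9 libraries and 15 pairs, the strongest was Creg2 with Slc26a7 at r = -0.66 (exact permutation within groups, two-sided p = 0.0559, adjusted p = 0.708; Spearman's rho -0.42, p = 0.285). Without control 1 and icKO 2, the libraries farthest from the median of Creg2, r was -0.37. No pair of the 15 had an unadjusted p under 0.05 for Pearson's r in this exact permutation test. With library size alone in place of TMM, Creg2 with Slc26a7 had r = -0.70 (exact permutation p = 0.0368, adjusted p = 0.552).

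Cell types were followed through 16 lists of markers, with 2 more lists for Y-linked genes and X inactivation, and no list passed the test between the groups after adjustment. Summed itch neuron markers were 233 to 297 CPM in icKO and 152 to 203 CPM in control, with a two-sided exact permutation p of 0.00794, the smallest that groups of 5 and 4 allow, and 0.143 adjusted over the 18 lists. A-fibre markers summed to 2823 to 3303 CPM in icKO and 3270 to 3732 CPM in control (exact permutation p = 0.0238, adjusted p = 0.190). Lymphocyte and neutrophil markers, 3 of 6 of them below the count filter, summed to 14.6 to 35.1 CPM in icKO and 10.9 to 18 CPM in control (exact permutation p = 0.0317, adjusted p = 0.190). Of single markers, edgeR's test called 1 of 7 A-fibre, 1 of 6 itch neuron and 1 of 4 C-LTMR genes higher. It called 2 of 6 peptidergic nociceptor genes lower, and 0 in the other 14 lists. Over all tested genes, 0.475% were called higher and 0.377% lower. The A-fibre list was mixed, as its 1 called gene was higher while its sum was lower in icKO (log2 difference -0.20). Fibroblast and meninges markers summed to 765 to 1911 CPM in icKO and 629 to 1320 CPM in control (exact permutation p = 0.468, adjusted p = 0.896), and Dcn, a matrix proteoglycan gene, was the most abundant of the 7 in all libraries but icKO 3, where Ptgds led at 725 CPM.

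Within groups, 15 of 96 relations of the 6 genes with 16 marker lists had an unadjusted p under 0.05 and none passed adjustment (smallest p 0.00868, for Creg2 with erythroid markers, smallest adjusted p 0.263; exact permutation). Siah3 was among the 15 with satellite glia (r = -0.83) and Mrgprd-type nociceptor markers (r = 0.68). Isoc1 was there with pan-neuronal (r = -0.72) and with lymphocyte and neutrophil markers (r = 0.65). Lgalsl was there with itch neuron (r = 0.76) and adipocyte markers (r = 0.77), and Gm765 with skeletal muscle markers (r = 0.81). Without the 2 libraries farthest from the median of each list, these r were -0.71, 0.54, -0.33, 0.86, 0.50, 0.48 and 0.73. For Slc26a7, 3 lists were among the 15. With fibroblast and meninges markers r was 0.77 over 9 libraries (exact permutation within groups, two-sided p = 0.0194; rho 0.73, p = 0.0927), and 0.73 without control 1 and icKO 2. With lymphocyte and neutrophil markers r was 0.78 (exact permutation p = 0.0233, adjusted p = 0.263; rho 0.68, p = 0.0622), and 0.40 without icKO 2 and icKO 4, and with pan-neuronal markers it was -0.70 (exact permutation p = 0.0406, adjusted p = 0.279; rho -0.60, p = 0.161), and -0.69 without icKO 4 and control 4. In icKO 3 the fibroblast and meninges sum held much Ptgds, a prostaglandin synthase gene, at 725 CPM against 8.06 to 137 CPM in the other icKO libraries. With Ptgds left out of the sum, a choice made after seeing the data and so given without a test, the sums were 1306, 757, 1095, 1775 and 1166 CPM in icKO libraries 1 to 5, and 602, 1288, 1240 and 1210 CPM in control libraries 1 to 4. The Slc26a7 r was then 0.65, and 0.47 without icKO 2 and control 1. With the sum of all 7 markers as a covariate the Slc26a7 log2 fold change was 0.63 (SE 0.098), and with the lymphocyte and neutrophil sum it was 0.45 (SE 0.13). The lymphocyte and neutrophil sum was itself mostly higher in icKO, so the last fit separates it only partly from the group. The part of these cells in the Slc26a7 difference was not tested beyond these values.

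Creg2 ran the other way, with r = -0.89 against the same marker sum (exact permutation p = 0.0177, adjusted p = 0.263; rho -0.72, p = 0.0385). Without control 1, which had the lowest sum at 629 CPM, and icKO 2, r was -0.35. With Ptgds left out of the sum, again after seeing the data and without a test, r was -0.99 over 9 libraries and -0.98 without icKO 2 and control 1. Creg2 also varied with other lists. With erythroid markers r was -0.83 (exact permutation p = 0.00868) and with macrophage markers -0.83 (exact permutation p = 0.0219). With lymphocyte and neutrophil markers it was -0.77 (exact permutation p = 0.0299), and with pan-neuronal markers 0.77 (exact permutation p = 0.0392). None passed adjustment. Without the 2 libraries farthest from the median of each list, these r were -0.37, -0.22, -0.46 and 0.86. With the fibroblast and meninges sum as a covariate the Creg2 log2 fold change was -1.31 (SE 0.089), with the A-fibre sum -1.03 (SE 0.19) and with the lymphocyte and neutrophil sum -1.06 (SE 0.16). The A-fibre sum was mostly lower in icKO and the lymphocyte and neutrophil sum mostly higher. Fits with these sums therefore separate them only partly from the group. Control 1 was also the library with the highest sum of peptidergic nociceptor markers, 3740 CPM against 2771 to 2913 CPM in the other controls.

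**Figure D3:**
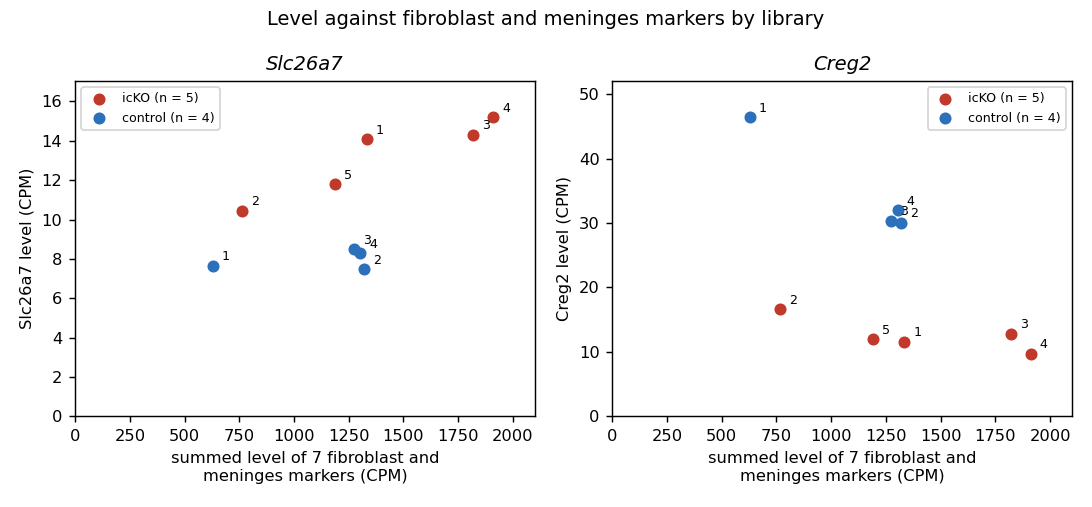
Level of Slc26a7 and Creg2 (CPM, vertical axes) against the summed level of 7 fibroblast and meninges markers (CPM, horizontal axes), 1 point a library, with 5 icKO and 4 control libraries and replicate numbers beside the points. Ptgds makes up 725 CPM of the icKO 3 sum, and control 1 has the lowest marker sum, 629 CPM, with the highest Creg2.

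Families of 5 of the 6 genes, with none for Gm765, were examined with 7 lists of relatives and partners. Other than the 6, these lists held 74 tested genes. Of these, edgeR's quasi-likelihood test called 0 at an adjusted p under 0.05, against 0.852% of all tested genes. At that share, lists this short can hold 0 calls without differing from other genes. At unadjusted p under 0.05 in the same test, 6 of the 74 were higher and 8 lower, against 4.85% and 6.26% of all tested genes. DESeq2 called 1 of them higher, Lgals9, and 0 lower, against 1.27% and 1.53% of the genes it gave an adjusted p. Among the 74 relatives the median log2 FC was -0.021, against -0.00076 over all tested genes.

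In the SLC26 family, 6 other genes were tested and 4 did not pass the filter on low counts. The 6 had log2 fold changes of -0.10 to 0.14, and none of these passed edgeR's test or had an unadjusted p under 0.05. Per kilobase of exon, Slc26a7 was second in the family in icKO, at 2.43 CPM, behind Slc26a11 at 3.13 CPM, and also in control, at 1.47 CPM against 2.85 CPM for Slc26a11. Slc26a11, which encodes a sulfate and chloride carrier, averaged 11.3 ± 0.524 CPM in icKO (SD, n = 5) and 10.3 ± 1.03 CPM in control (SD, n = 4), and gave no call (log2 FC 0.14, SE 0.086, adjusted p = 0.611 in edgeR's test). The next smallest p-values were those of Slc26a10 at a log2 FC of -0.10 (adjusted p = 0.904), Slc26a1 at -0.094 (0.924) and Slc26a6, a chloride and bicarbonate exchanger gene, at 0.031 (0.974).

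Of 20 other tested genes of chloride and bicarbonate transport, 0 passed, against 0.852% of all tested genes. At unadjusted p under 0.05 in edgeR's test, 3 were higher and 3 lower, where 11.1% of all tested genes lay in either direction. Ano1, the gene of a calcium-activated chloride channel of nociceptors, was at 11.6 ± 1.75 CPM in icKO (SD, n = 5) and 15.7 ± 2.69 CPM in control (SD, n = 4), and did not pass edgeR's test (log2 FC -0.43, SE 0.13, adjusted p = 0.211). Its relative Ano3 reached 452 ± 24.6 CPM in the icKO group and 395 ± 40.9 CPM in the control group (log2 FC 0.20, adjusted p = 0.307). Slc4a2, an anion exchanger gene, had a log2 FC of -0.19 (adjusted p = 0.263), and Slc12a5, the neuronal potassium and chloride cotransporter gene, had 0.687 CPM in the icKO group and 1.19 CPM in the control group (log2 FC -0.78, adjusted p = 0.302).

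Of the SIAH genes and partners other than Siah3, 0 of 12 passed edgeR's test, against 0.852% of all tested genes. None of the 12 had an unadjusted p under 0.05. Over all 4 SIAH genes, the mean level per kilobase of exon in icKO was 9.63 CPM for Siah1a, 4.88 for Siah3, 4.23 for Siah2 and 1.94 for Siah1b, and in control it was 10.1 CPM for Siah1a, 8.11 for Siah3, 4.78 for Siah2 and 2.02 for Siah1b. Siah2 had 12.7 ± 1.70 CPM in icKO (SD, n = 5) and 14.3 ± 0.925 CPM in control (SD, n = 4), a log2 FC of -0.18 (SE 0.098) that missed the threshold of edgeR's test (adjusted p = 0.561). Siah1a and Siah1b are close in sequence, so their counts are uncertain. Among the partners of these ligases, the log2 FC was -0.068 for Tbl1x (adjusted p = 0.707) and 0.11 for Skp1a (adjusted p = 0.755).

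Galectins gave 0 calls among 7 tested relatives of Lgalsl, where 0.852% of all tested genes were called. Lgals9 averaged 141 ± 7.67 CPM in icKO (SD, n = 5) and 120.1 ± 7.77 CPM in control (SD, n = 4), a log2 FC of 0.23 (SE 0.061). Its adjusted p was 0.126 in edgeR's quasi-likelihood test and 0.0165 in DESeq2. Lgals8 had a log2 FC of -0.080 (adjusted p = 0.779), Lgals3bp, the gene of a galectin-binding glycoprotein, at 0.15 (0.614) and Lgals7, under 1 CPM in both groups, at -0.95 (0.525).

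Creg1, the closest relative of Creg2, averaged 24.8 ± 0.924 CPM in icKO (SD, n = 5) and 23.9 ± 2.62 CPM in control (SD, n = 4), with no call in edgeR's test (log2 FC 0.052, SE 0.075, adjusted p = 0.872). Per kilobase, Creg1 was at 10.5 CPM and Creg2 at 2.06 CPM in icKO, against 10.1 CPM for Creg1 and 5.70 CPM for Creg2 in control. Igf2r and M6pr, the mannose 6-phosphate receptor genes, had log2 FC values of 0.21 (adjusted p = 0.365) and -0.042 (0.807). The isochorismatase-domain relatives of Isoc1 were Isoc2a, with 20.6 ± 0.450 CPM in the icKO group and 23.1 ± 1.24 CPM in the control group (log2 FC -0.17, adjusted p = 0.285), and Isoc2b, with a log2 FC of 0.16 (adjusted p = 0.681). ISOC1 has been found in peroxisomes, and of 24 peroxisome genes 0 passed, against 0.852% of all tested genes. Of these 24, 1 was higher and 4 were lower at unadjusted p under 0.05, against 4.85% and 6.26% of all tested genes. Their smallest adjusted p by edgeR's test belonged to Pex14, a docking protein of the import machinery, at a log2 FC of -0.25 (SE 0.070, adjusted p = 0.136), and next came Ehhadh at -0.27 (0.364), Scp2 at 0.17 (0.391) and Pex10 at -0.19 (0.409).

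**Figure D4:**
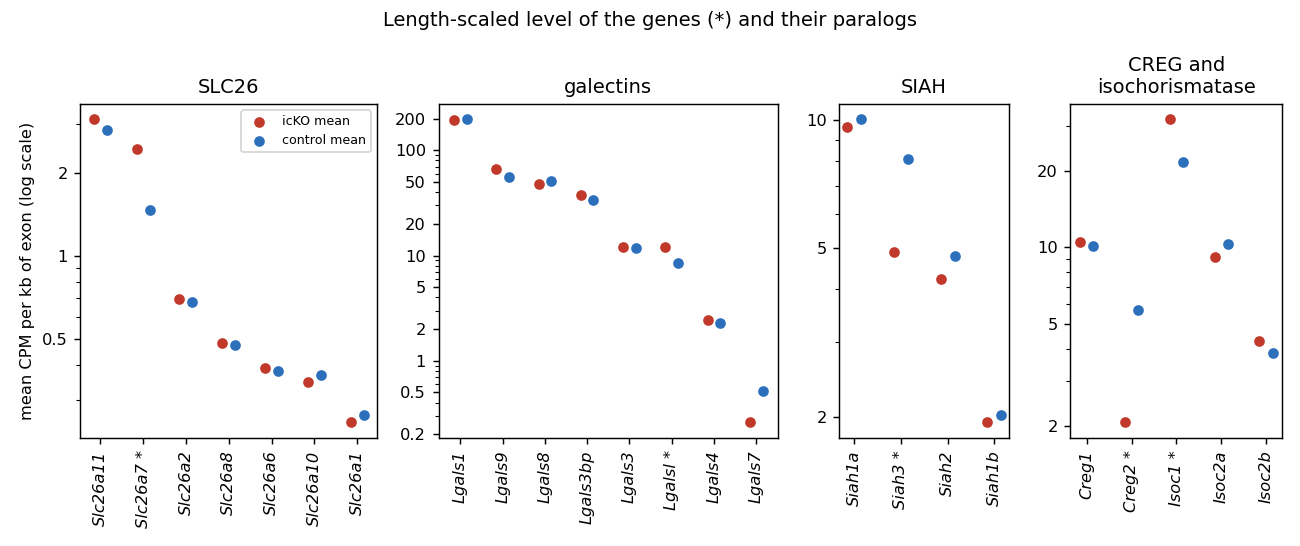
Mean level per kilobase of exon (CPM per kb, log axes) in icKO (left point of each pair) and control (right point) for tested SLC26, galectin, SIAH, CREG and isochorismatase genes, with the 5 chosen genes that belong to these families marked by an asterisk. The pairs of Slc26a7, Creg2, Siah3, Isoc1 and Lgalsl are spread apart, as is that of Lgals7, which stayed under 1 CPM.

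The genes beside the 6 on their chromosomes were examined because position was not used to choose them. Of the 12 nearest tested genes, 1 on each side of each gene, and 2 overlapping antisense genes, 2 of 14 were higher in icKO and 0 lower by edgeR's quasi-likelihood test, against 0.475% and 0.377% of all genes. Adamts19, a gene of the ADAMTS family of metalloproteases, is the nearest tested gene after Isoc1, 156 kb further along chromosome 18. It averaged 3.70 ± 0.531 CPM in icKO (SD, n = 5) and 1.26 ± 0.596 CPM in control (SD, n = 4), and passed (log2 FC 1.58, SE 0.25, adjusted p = 0.00821). Runx1t1, a transcriptional corepressor gene, is the nearest tested gene before Slc26a7, 609 kb away on chromosome 4. It averaged 30.5 ± 0.677 CPM in icKO (SD, n = 5) and 22.8 ± 2.41 CPM in control (SD, n = 4), and passed (log2 FC 0.42, SE 0.070, adjusted p = 0.0128). Both calls held without each of the 9 libraries, with adjusted p-values of up to 0.0327 for Adamts19 and 0.0455 for Runx1t1, and both genes were already known to differ in these data. With the replicate number as a block, Runx1t1 lost its call in edgeR's test (log2 FC 0.43, adjusted p = 0.104). Whether the numbers pair the libraries is not known.

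On the other side of Isoc1, Slc27a6, a fatty acid transport protein gene, was at 0.664 ± 0.117 CPM in icKO (SD, n = 5) and 0.468 ± 0.156 CPM in control (SD, n = 4) and did not pass (log2 FC 0.52, SE 0.26, adjusted p = 0.516 in edgeR's test). The far neighbour of Slc26a7, Otud6b, had a log2 FC of 0.064 (adjusted p = 0.764). Beside Creg2, Rnf149, a ubiquitin ligase gene, was at 17.2 ± 1.24 CPM in icKO (SD, n = 5) and 21.6 ± 1.86 CPM in control (SD, n = 4), which left it short of the threshold (log2 FC -0.33, SE 0.079, adjusted p = 0.0788), and Rfx8 had a log2 FC of -0.093 (0.956). Around Gm765, Mitf and Foxp1, both transcription factor genes, had log2 FC values of 0.0069 (adjusted p = 0.993) and 0.095 (0.826). Around Siah3, Zc3h13 had a log2 FC of -0.054 (adjusted p = 0.834) and Cog3 at -0.051 (0.770), and around Lgalsl, Aftph was at -0.020 (0.917) and Peli1 at 0.13 (0.583).

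An antisense gene, D930019O06Rik, covers the 5′ end of Creg2 and shares 919 exonic bases with it. Its counts were 6, 10, 6, 4 and 4 in icKO libraries 1 to 5, against 28, 20, 8 and 22 in control libraries 1 to 4. Only control 3 came down to the level of icKO. Its log2 FC of -1.82 (SE 0.41) missed the threshold of edgeR's test (adjusted p = 0.0638), and the adjusted p was 0.00989 without control 3. It passed the count filter in 5 of 9 fits that leave out 1 library, with adjusted p-values of up to 0.142. Whether counting used the strand is not given in the sources used here, so reads of Creg2 and of this gene cannot be told apart in the shared stretch. Gm32592, antisense to the 3′ end of Gm765 with 222 shared exonic bases, had 10 to 16 counts in icKO and 9 to 15 in control.

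**Figure D5:**
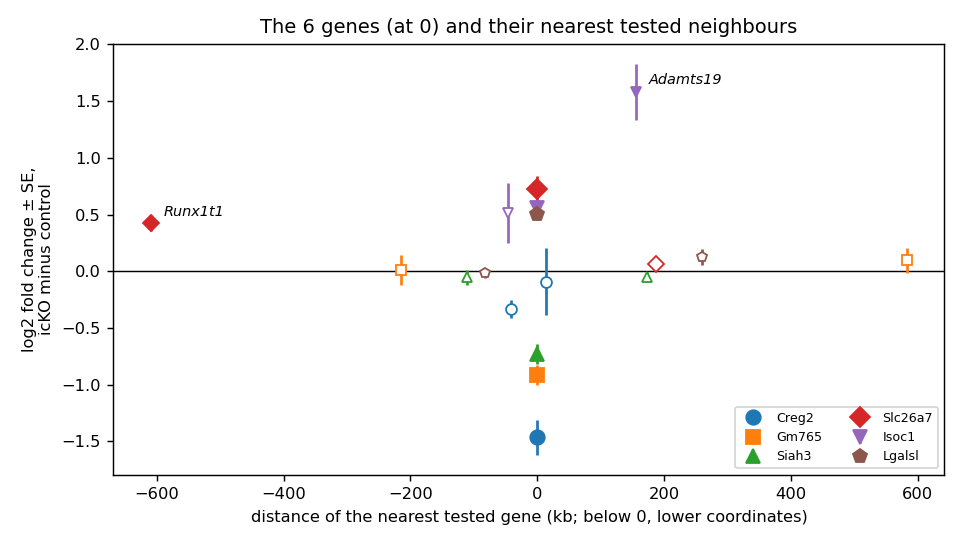
Log2 fold change (icKO minus control, ± SE) of the 6 genes at distance 0 and of the nearest tested gene on each side of each, against distance in kb (below 0 for lower coordinates), with 1 colour and symbol per gene. Filled neighbours passed an adjusted p under 0.05, and these were Adamts19 beside Isoc1 and Runx1t1 beside Slc26a7.

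The genes whose levels ran most like each of the 6 were found over 13525 genes and 9 libraries. This likeness, the Pearson r of log2 CPM, contains the group difference and is a description. Creg2 was followed by St8sia1, a sialyltransferase gene, at r = 0.98, and by Polr3d, an RNA polymerase III subunit gene, at 0.98, and with group means removed these values were 0.91 and 0.91. Gm765 was followed by Bag2, a cochaperone gene, at 0.97, Lap3, an aminopeptidase gene, at 0.97 and Prdm12 at 0.96, with 0.55, 0.64 and 0.29 after group means were removed. Siah3 ran with Strbp at 0.97, Pcdh7 at 0.96 and Reep5 at 0.96 (0.75, 0.71 and 0.69 with group means removed).

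For the genes higher in icKO, Slc26a7 ran with Pde1a, a calmodulin-dependent phosphodiesterase gene, at 0.97, Zmym2 at 0.97 and Sulf1, an extracellular sulfatase gene, at 0.97. With group means removed these were 0.89, 0.85 and 0.79. Isoc1 ran with Rgs9bp, the gene of a membrane anchor for RGS9, at 0.99, the cadherin gene Cdh11 at 0.99 and the nicotinic receptor subunit gene Chrna6 at 0.99 (0.83, 0.75 and 0.75 with group means removed). Lgalsl ran with Ism1 at 0.99, the leukotriene receptor gene Cysltr2 at 0.99 and the kinase gene Stk32a at 0.98 (0.63, 0.85 and 0.65 with group means removed). Cysltr2 was among the 6 itch neuron markers, and with their sum as a covariate the Lgalsl log2 fold change was 0.33 (SE 0.12). Without the covariate it was 0.50 (SE 0.053). That sum did not overlap between the groups, so this fit can hardly separate it from the group itself. Within groups, Lgalsl and that sum had r = 0.76 (exact permutation p = 0.0361, adjusted p = 0.279), and 0.50 without control 1 and icKO 1. With the same covariate Creg2 was at -1.89 (SE 0.33) and Gm765 at -1.19 (SE 0.19), both larger in size than without it. The part of itch neurons in these differences was not tested.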

How the data were processed

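The submitters' processing notes list featureCounts 1.5.0-p1, STAR 2.5.2a, bcl2fastq 2.20.0.422 and mm10 for the authors' steps. The deposited values are raw read counts per Ensembl gene, 1 table per library. The annotation release, the strand setting and the handling of multi-mapping reads were not given in the sources used here. All 55536 identifiers matched GENCODE M21, on the same build, which gave symbols, positions and exonic lengths.

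Genes were kept with filterByExpr by group (minimum count 10, minimum total 15). TMM-scaled counts were compared with edgeR 4.0.16 (quasi-likelihood test, R 4.3.3) over all 9 libraries, with Benjamini-Hochberg adjustment over 17258 genes and a threshold of 0.05. A log2 fold change above 0 means higher in icKO, and its SE is its size over the root of F. Log2 CPM used a prior count of 2. Marker sums were compared by exact permutation over 126 splits, and correlations of deviations from group means over 2880 permutations within groups. The scripts were tested on simulated data. A total of 3 counts equals 0.101 to 0.155 CPM, and counting error is the only error this floor covers. DESeq2 1.42.0 was an alternative.

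The 6 genes and all lists were chosen with earlier results of these data known. Named genes are the 6, Prdm12, up to 4 relatives per list with the smallest p, the nearest tested and overlapping genes, and 3 genes of highest r for each of the 6. Of the genes that met this rule, 2 are not reported here. No pair of replicates came close to counting noise (chi-square over its degrees of freedom 6.03 to 23.2), so each counted as 1 library.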

Additional observations from a re-analysis of the deposited data

Results flagged for a closer look

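Single libraries that lay apart from the rest of their group were found for 14 of 124 groups of values examined (62 genes or marker sums in icKO and in control), where chance gives about 1 in 20. Control 1 was high for Creg2, at 46.5 CPM against 30.05 to 32 CPM in the other controls, and for the peptidergic nociceptor marker sum, at 3740 CPM. The same library was low for the fibroblast and meninges marker sum, at 629 CPM against 1273 to 1319 CPM, and high for Lgals3bp, at 112 CPM. Control 2 was low for Igf2r, at 41.1 CPM, and for Tbl1x, at 64.7 CPM, control 3 was high for Slc4a2, at 78.5 CPM, and control 4 was high for the C-LTMR marker sum, at 499 CPM. Among icKO libraries, icKO 1 was high for the skeletal muscle marker sum, at 30.4 CPM against 4.04 to 5.69 CPM. The endothelial and mural sum was high in icKO 4, at 360 CPM, and Siah2 was high in icKO 5, at 15.7 CPM. In icKO 2, Igf2r was high at 65.5 CPM, the antisense gene D930019O06Rik was high at 0.387 CPM and Gm32592 was low at 0.387 CPM.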

How the results depend on the processing

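The direction of the 6 genes is fixed by their choice. Of 222 values over 37 settings, 212 moved by less than the spread between replicates. The 10 others were the log2 fold changes with marker sums as a covariate, chosen after seeing the data, of Gm765 (-1.19), Lgalsl (0.33) and Creg2 (-1.89) with itch neuron markers, Isoc1 with C-LTMR markers (0.48), Creg2 (-1.03) and Slc26a7 (0.48) with A-fibre markers, and Isoc1 (0.47), Creg2 (-1.06) and Slc26a7 (0.45) with lymphocyte and neutrophil markers, and Gm765 within libraries of high Y-linked counts (-0.75); the cause was not tested. Over all genes, 82 higher and 65 lower calls became 172 and 221 with no count filter, 198 and 238 with DESeq2, 28 and 20 with the replicate number as a block, and 45 to 85 and 33 to 90 with 1 library left out. Deviations of same-numbered libraries had r of -0.175 to 0.17, and those of differently numbered libraries -0.324 to 0.412. These few values cannot decide whether the numbers pair the libraries, and the labels do not say. Family calls were 0, or 1 higher with DESeq2. Neighbour calls were 2 higher and 0 lower, 1 higher with the replicate block, where Runx1t1 had an adjusted p of 0.104, and 1 lower with no count filter or robust dispersion (D930019O06Rik, adjusted p 0.00973 and 0.0469) and with DESeq2 (Rnf149, adjusted p 0.0109), and 0 to 1 lower with 1 library left out.

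Directions that turned belonged to values that passed no test. With the Y-linked split as a term, the log2 fold change of Mitf was -0.0086 and that of Gm32592 -0.016. With 1 library left out, log2 fold changes ran from -0.028 to 0.11 for Slc26a6, -0.19 to 0.022 for Slc26a10, -0.075 to 0.083 for Mitf, -0.14 to 0.25 for Gm32592, -0.21 to 0.019 for Rfx8 and -0.091 to 0.0066 for Zc3h13. Marker sums ran from -0.10 to 0.056 for peptidergic nociceptors, -0.011 to 0.082 for Schwann cells, -0.050 to 0.19 for macrophages, -0.090 to 0.035 for endothelial and mural cells, -0.029 to 0.041 for spinal cord, -0.87 to 0.040 for adipocytes, -1.61 to 1.06 for Y-linked genes and -0.60 to 2.03 for Xist. Correlations turned without the 2 farthest libraries for Gm765 with Lgalsl (-0.19) and Siah3 (0.19), Isoc1 with Lgalsl (0.14), and Slc26a7 with Lgalsl (-0.21) and Siah3 (0.14), and with library size alone for Isoc1 with Lgalsl (0.0083) and Lgalsl with Creg2 (-0.25). Depth limits D930019O06Rik, with 4 to 28 counts per library, and Lgals7, with 3 to 19.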
